A study of Mus musculus with 4 samples.

Results

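The 8 genes described here encode intestinal peptide hormones: Gip, Gcg, Cck, Sst, Nts, Pyy, Sct and Iapp. They were chosen by name from the 29161 genes of the count table, and all 8 were present in it. A cell was taken to express one of them when it held at least 1000 counts of that gene per 1000000 counts of the cell (CPM), or at least 200 CPM for Nts, Pyy and Iapp. By this rule 63 of 290 cells expressed at least 1 of the 8 genes, and 227 expressed none. The study profiled single cells from mouse enteroids, cultures in which intestinal crypts grow in Matrigel into small hollow epithelia, to examine how endocrine subtypes arise. All cells came from female CD1 mice that carried a Neurog3eYFP/+ reporter allele, and living eYFP-positive cells were sorted at 1 cell per well. The sort therefore selected cells by a fluorescent protein made from the Neurog3 locus, the factor that starts the enteroendocrine programme, and there was no group without the reporter. The 3 duodenum plates came from mice of 39 weeks (replicate 1) and 12 weeks (replicates 2 and 3), and the jejunum plate (replicate 1) from mice of 12 weeks. They held 72, 83, 72 and 63 cells, in that order. How many mice gave enteroids to a plate is not given in the sources used here, so the spread between plates may be partly technical.

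Enteroendocrine cells are scattered secretory cells of the gut epithelium that sense the lumen and release peptides or serotonin. Older naming gave each hormone its own cell: K cells for Gip, L cells for the proglucagon gene Gcg and for Pyy, I cells for Cck, D cells for Sst, N cells for Nts and S cells for Sct. Cells that hold several of these messages at once are well known, and the same peptides are cut from precursors by Pcsk1 and Cpe and stored with granins such as Chga, Chgb and Scg2. Iapp encodes amylin, best known as the peptide that pancreatic beta cells release with insulin.

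The genes lie on 7 chromosomes of GRCm38 and all are protein-coding in the GENCODE M21 annotation. Gip spans chr11:96024545-96030831 on the plus strand, Gcg chr2:62474530-62483650, Cck chr9:121489824-121495694 and Sst chr16:23889573-23890958, the last 3 on the minus strand. Nts lies at chr10:102481756-102490486, Pyy at chr11:102106676-102107832 and Sct at chr7:141278330-141279133, all on the minus strand, and Iapp at chr6:142298423-142303961 on the plus strand. The 250 bases before the start site are printed here for the 4 genes that reached the highest levels in single cells, from RefSeq's promoter table of GRCm38.p6, 5′ to 3′ on the gene's own strand. Capitals mark matches, on either strand, to 4 short motifs. TATAAN is the core promoter box, TGACGTCA the palindromic cAMP response element, AGATAA the motif of zinc-finger factors such as Gata4, and TTAATC a motif of homeodomain factors.
Gip: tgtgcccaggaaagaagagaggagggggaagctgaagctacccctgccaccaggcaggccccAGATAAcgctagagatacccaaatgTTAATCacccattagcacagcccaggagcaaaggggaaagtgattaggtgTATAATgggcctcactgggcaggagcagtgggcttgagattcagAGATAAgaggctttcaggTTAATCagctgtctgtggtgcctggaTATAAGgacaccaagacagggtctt
Gcg: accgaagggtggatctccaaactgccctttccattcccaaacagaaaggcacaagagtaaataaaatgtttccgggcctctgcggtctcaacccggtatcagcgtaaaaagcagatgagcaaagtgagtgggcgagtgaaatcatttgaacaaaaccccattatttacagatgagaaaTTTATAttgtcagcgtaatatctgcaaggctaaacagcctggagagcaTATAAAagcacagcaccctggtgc
Cck: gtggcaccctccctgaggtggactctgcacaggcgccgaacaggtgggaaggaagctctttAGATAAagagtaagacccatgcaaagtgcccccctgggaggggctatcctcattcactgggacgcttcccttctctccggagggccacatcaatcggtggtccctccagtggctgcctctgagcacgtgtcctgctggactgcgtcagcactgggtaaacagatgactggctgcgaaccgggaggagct
Sst: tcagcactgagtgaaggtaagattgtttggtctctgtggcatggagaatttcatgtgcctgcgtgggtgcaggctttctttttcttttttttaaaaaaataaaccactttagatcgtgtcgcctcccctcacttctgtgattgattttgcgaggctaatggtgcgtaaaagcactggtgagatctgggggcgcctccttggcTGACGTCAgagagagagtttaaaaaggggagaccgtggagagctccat
These lines cover chr11:96024295-96024544 for Gip, chr2:62483654-62483903 for Gcg, chr9:121495695-121495944 for Cck and chr16:23890845-23891094 for Sst. They are counted from RefSeq's start site, which for Sst lies inside the span that GENCODE gives the gene. The Gip line holds AGATAA with its first base 188 and 69 bases before the start, TTAATC at 163 and 51, and TATAAN at 113 and 25. The Sst line holds TGACGTCA 48 bases before the start, the Cck line AGATAA at 189, and the Gcg line TATAAN at 24 and, on the other strand, at 72. Of 32851 promoter windows of 300 bases (250 before to 50 after the start), 24.8% hold TATAAN, 1.79% TGACGTCA, 11.2% AGATAA and 7.43% TTAATC. All 8 genes matched an entry of that table. A match is a run of letters and no measurement of binding was made.

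Plate totals ran from 23893272 to 46490618 counts, and single cells held 202711 to 2312044 counts. The plates carry the same barcoded well names, 88 of 92 of which occur in at least 2 plates, so a cell is always named here with its plate. In the class without any hormone gene the granin Chgb was at 100 CPM or more in 225 of 227 cells, with a median of 1064 CPM. Among the 51 cells with at least 1 of the 7 genes other than Sct it was so in 49, with a median of 8192 CPM. Summed per plate the order was the other way on the 3 plates where both classes had at least 5 cells. Chgb was at 17200, 14680 and 21520 CPM in these cells on duodenum replicates 2 and 3 and the jejunum plate. In the cells without any hormone gene it was at 38750, 17300 and 46840 CPM. Summed levels of 3 tuft cell markers had a median of 0 CPM in both classes. Those of 4 non-epithelial markers had medians of 12.0 and 10.5 CPM with single cells up to 11260 and 8839 CPM, and 8 goblet markers had medians of 1558 and 1494 CPM. Their part in the hormone results was not tested.

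Cck and Sct were the hormone genes found in the most cells. Cck, whose peptide drives gallbladder contraction and pancreatic enzyme release, was expressed in 35 cells, or 12.1% of 290 (8.55 to 16.4%, an exact Clopper-Pearson 95% interval that covers counting error only, as do the other intervals). Sct, whose peptide secretin drives bicarbonate release, was expressed in 38 cells, or 13.1% (9.44 to 17.5%). Iapp followed with 15 cells (5.17%, 2.92 to 8.39%), and Gip and Gcg with 11 cells each (3.79%, 1.91 to 6.69%). Pyy was expressed in 5 cells, Nts in 3 and Sst in 2, or 1.72%, 1.03% and 0.690% of all cells. The intervals of Cck and Sct overlap each other and lie above those of Gip and Gcg.

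**Figure D1:**
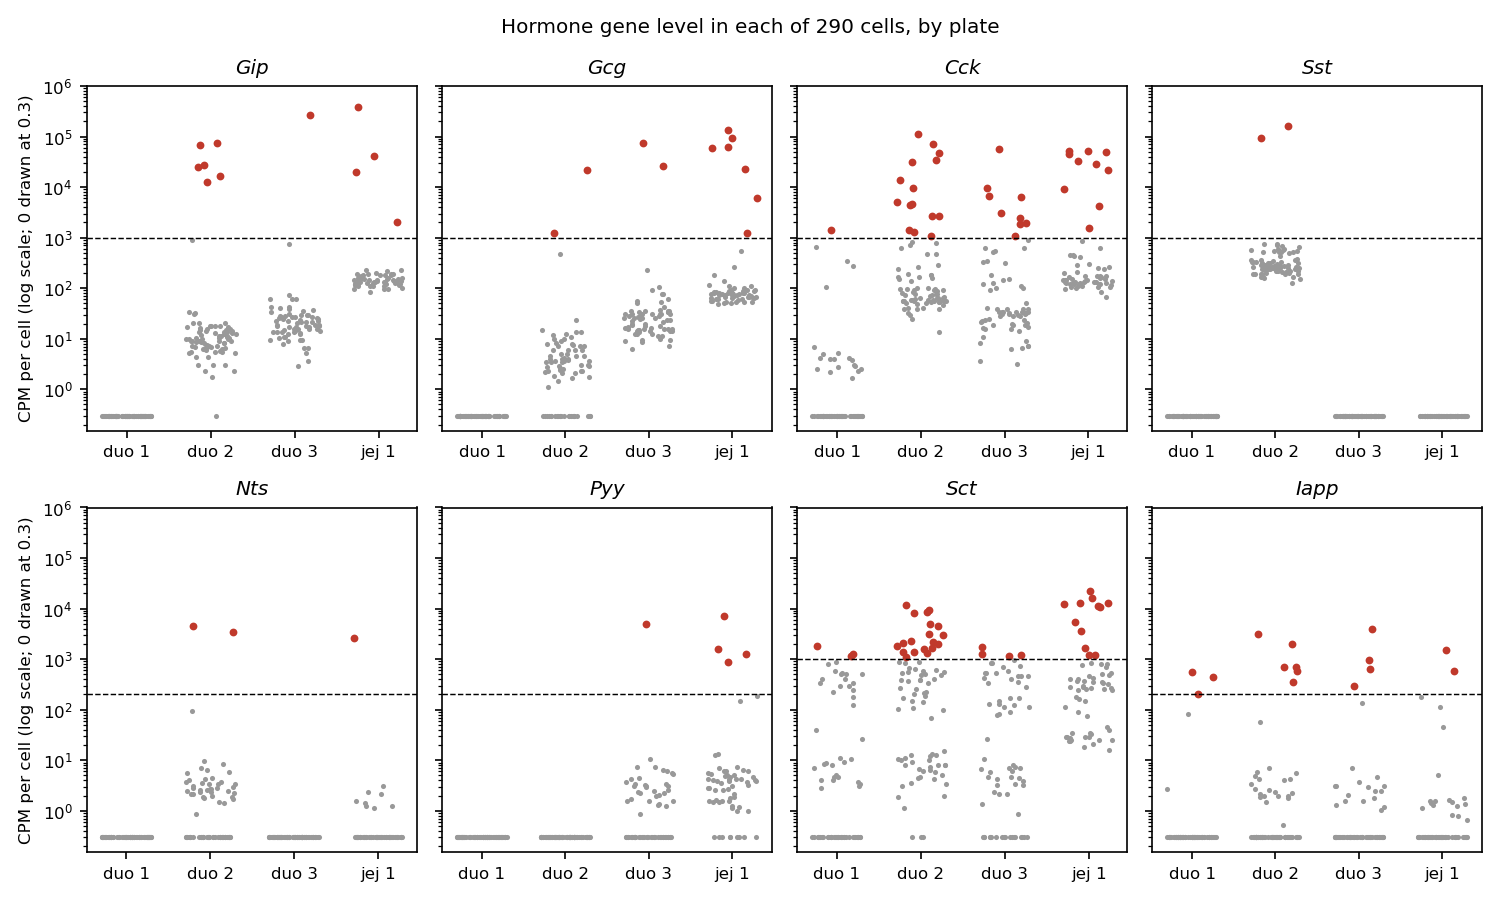
Level of each hormone gene in every cell by plate (duo 1 to 3, duodenum replicates 1 to 3; jej 1, jejunum replicate 1), as CPM on a log axis with 0 drawn at 0.3. Each point is 1 of 290 cells, red at or above the dashed threshold and grey below it; the grey band of low counts shared by a plate stands apart from the red points for Gip, Gcg and Sst and runs up to the threshold for Sct.

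The number of expressing cells differed between plates. Gip, the incretin that raises insulin release, was expressed in 0, 6, 1 and 4 cells of duodenum replicates 1, 2 and 3 and the jejunum plate. Gcg, the source of GLP-1 and GLP-2 in the gut, was expressed in 0, 2, 2 and 7 cells in the same order. Cck was expressed in 1, 15, 9 and 10 cells and Sct in 3, 19, 4 and 12. Sct thus took 22.9% of the cells of duodenum replicate 2 (14.4 to 33.4%) and 19.0% of the jejunum cells (10.2 to 30.9%), against 4.17% (0.868 to 11.7%) and 5.56% (1.53 to 13.6%) in the other duodenum plates. The intervals of these 2 plates lie below that of duodenum replicate 2 and overlap that of the jejunum. Sst, the general inhibitor of hormone release, was expressed in 2 cells, both in duodenum replicate 2. Nts, the peptide neurotensin of the distal gut, was expressed in 2 cells of that plate and 1 jejunum cell, and Pyy, a brake on food intake, in 1 cell of duodenum replicate 3 and 4 jejunum cells. Iapp was expressed in 3, 6, 4 and 2 cells, so it was present on every plate, as were Cck and Sct. Duodenum replicate 1, the plate of 39 weeks, held 0 counts of Gip, Gcg, Sst, Nts and Pyy in all 72 cells. By the limit of 3 counts of the total this allows a share of cells with a count of up to 4.17%, and the exact interval reaches 4.99%. Sst was seen on duodenum replicate 2 and at 0 counts on duodenum replicate 3, which had the same tissue and age. The plate of 39 weeks and the jejunum plate were each the only plate of their age or tissue. For them age or tissue cannot be told apart from plate.

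Levels of 1 gene ranged widely between the cells that expressed it. In Gip cells the level ran from 2072 to 387387 CPM, a 187-fold range, with a median of 27982 CPM. In duodenum replicate 2 the 6 Gip cells lay within 12339 to 74596 CPM, the 1 cell of duodenum replicate 3 held 264562 CPM, and the 4 jejunum cells held 2072, 20229, 41069 and 387387 CPM.
The lowest and the highest Gip cell were thus on the same jejunum plate. Gcg ran from 1239 to 133714 CPM. The 2 cells of duodenum replicate 2 held 1250 and 21357 CPM, those of duodenum replicate 3 held 26384 and 73595 CPM, and the jejunum cells ran from 1239 to 133714 CPM. Cck ran from 1072 to 112797 CPM with a median of 6522 CPM. The Sst cells held 92358 and 160467 CPM, with no cell between these and the next highest value of 751 CPM. The 3 Nts cells held 4572, 3399 and 2645 CPM. The Pyy cells held 4911 CPM in duodenum replicate 3 and 7110, 1560.0, 1277 and 876 CPM in the jejunum. Sct ran from 1090 to 22729 CPM and Iapp from 208 to 3919 CPM. The 8 genes together took a median of 0.467% of the counts of the 63 cells that expressed any of them, with a range of 0.0219 to 43.5%, and passed 10% in 8 cells. In the 227 other cells they took at most 0.177%.

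Some thresholds fell in a gap and others did not. The lowest Gip cell inside held 2072 CPM and the highest outside 907 and 764 CPM, and for Nts the values were 2645 and 93.8 CPM. For Pyy they were 876 inside and 189 and 149 CPM outside, and for Gcg 1239 inside and 548 and 477 CPM outside. For Sct, Cck and Iapp the values ran across the threshold with little gap: 1090 and 961 CPM for Sct, 1072 and 879 CPM for Cck and 208 and 179 CPM for Iapp. Sct had 103 cells between 100 and 1000 CPM, 94 with a lower level above 0 and 55 at 0. The Sct values outside the rule thus spread from 0 up to the threshold, and whether they form separate groups was not tested. Cck had 88 cells between 100 and 1000 CPM, 50 of them on the jejunum plate, where the low counts of the plate reached that range.

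Counts below the threshold were found in most cells of some plates and in none of others, gene by gene. Of the 32 pairs of a gene and a plate, 9 held 0 counts in every cell and 23 held counts, and each of those 23 had at least 1 expressing cell on the plate. No plate thus held low counts of a hormone gene without a cell that expressed it. In 9 pairs every cell below the threshold held at least 1 count of the gene, and in 15 pairs more than 50% did. Gip cells below the threshold held a median of 4, 10 and 98 counts in duodenum replicates 2 and 3 and the jejunum plate, while the expressing cells of these plates summed to 100450, 134654 and 700171 counts. The order of the low counts was thus the order of the sums. For Gcg the low medians were 1, 9.5 and 51.5 counts beside sums of 11856, 65112 and 277613 counts. For Pyy they were 0 and 2 counts beside 3227 and 7587 counts.

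For Gip, Gcg and Sst the low counts were at similar levels in cells without any hormone gene and in cells that expressed other members. On the jejunum plate the median Gip level below the threshold was 136 CPM in 48 cells without a hormone gene and 152 CPM in 11 cells with other members. For Gcg it was 73.8 and 76.6 CPM there, and for Sst in duodenum replicate 2 it was 267 and 254 CPM. This did not hold for Sct, whose medians in these cell sets were 0 and 403 CPM in duodenum replicate 1, 68.4 and 13.1 CPM in replicate 2, 6.18 and 90.1 CPM in replicate 3 and 248 and 244 CPM in the jejunum. Cck in duodenum replicate 3 was at 31.5 and 79.2 CPM. All levels below the threshold were left out of the expressing cells, and whether those of Sct and Cck were low expression was not tested. A low well of duodenum replicate 2 held a median of 0.117% of its plate's Sst counts, beside 0.00395% of its Gip counts, so the low level per expressed count was not the same for all genes. The share of a gene's counts on a plate that lay in cells below threshold ran from 0.754% for Gip in duodenum replicate 2 to 66.9% for Sct in duodenum replicates 1 and 3.

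**Figure D2:**
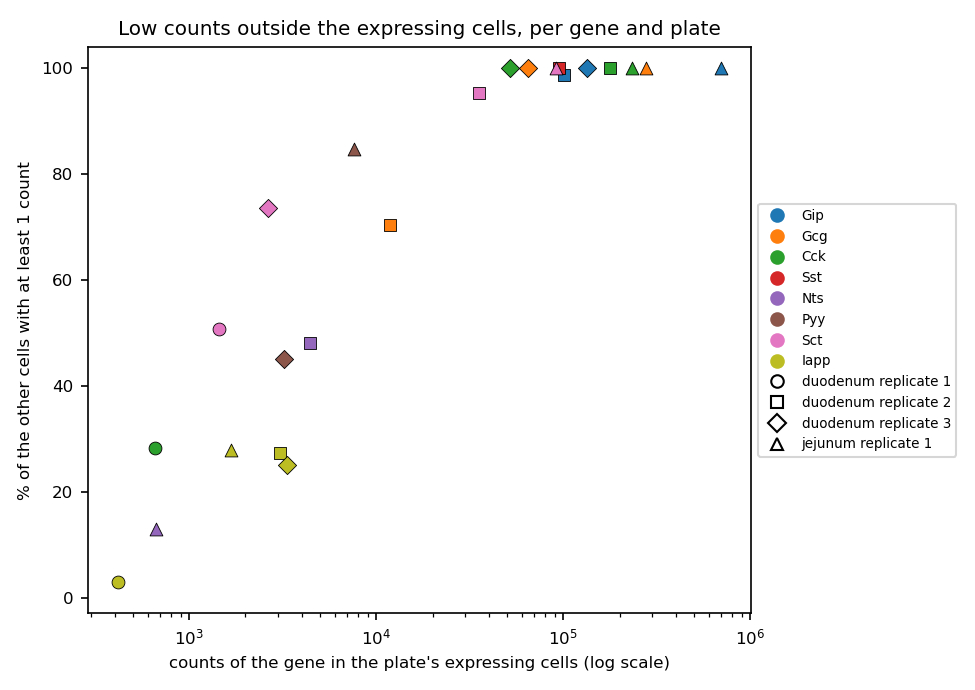
Share of cells below the threshold with at least 1 count (vertical axis, %) against the gene's summed counts in the expressing cells of the same plate (horizontal axis, log scale). Each point is 1 of the 23 pairs of a gene (colour) and a plate (shape) with counts; the share runs from 2.9% for Iapp in duodenum replicate 1 to 100.0%, and is higher where the expressing cells hold more counts.

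Of the 63 cells, 34 expressed 1 of the 8 genes, 13 expressed 2, 7 expressed 3, 6 expressed 4 and 3 expressed 5. The 29 cells with 2 or more were 0, 13, 6 and 10 in duodenum replicates 1, 2 and 3 and the jejunum plate. With Sct left aside, 51 cells (17.6%, 13.4 to 22.5%) expressed at least 1 of the other 7 genes, and 19 of these 51 (37.3%, 24.1 to 51.9%) expressed 2 or more of them. By plate these were 0 of 4, 8 of 21, 4 of 13 and 7 of 13 cells, and the intervals of the 3 plates with such cells overlap (18.1 to 61.6%, 9.09 to 61.4% and 25.1 to 80.8%). Cells with 2 or more of the 8 genes held a median of 531921 counts, those with 1 held 465922 and those with none 403125. Within plates, in the same order, the medians were 462311, 506468 and 415376 counts in duodenum replicate 2, 576082, 387513 and 436119 in duodenum replicate 3, and 754075, 616549 and 671902 in the jejunum. The cells with 2 or more genes were thus the deepest on 2 of the 3 plates that held them. Each well was meant to receive 1 sorted cell, no doublet caller was run, and the part of depth in the combinations was not tested. Thinning all cells to 100000 counts keeps the expected CPM of each gene, so it cannot test this.

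**Figure D3:**
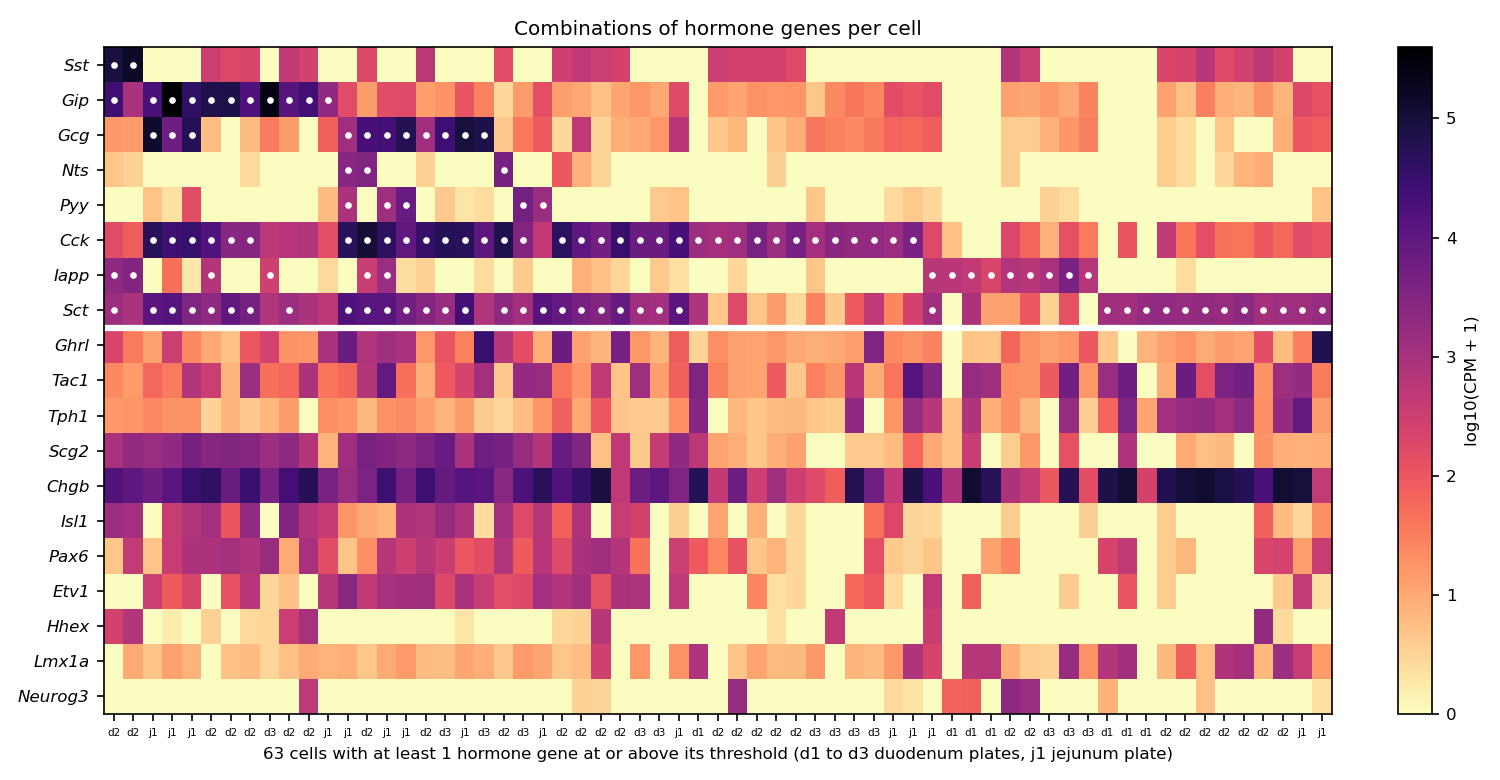
Each column is 1 of the 63 cells with at least 1 hormone gene, each row a gene, and the colour is log10(CPM + 1). White dots mark hormone genes at or above threshold, and the rows under the white line are other hormone, granin, serotonin and transcription factor genes; the 11 Gcg cells all carry a dot for Cck, and Scg2 is at 100 CPM or more in all 19 cells with 2 or more genes besides Sct.

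Gcg was never seen without Cck. All 11 Gcg cells expressed Cck (31.4% of the 35 Cck cells), on 3 plates (2, 2 and 7 cells), and 10 of the 11 also expressed Sct. In these 11 cells Cck ran from 9284 to 112797 CPM with a median of 44346 CPM, against 1072 to 69821 CPM and a median of 3664 CPM in the 24 Cck cells without Gcg. The ranges overlap, and all 11 Gcg cells lay above the median of the others. In the cells with both, the level per kilobase of exon was higher for Gcg in some and for Cck in others. A jejunum cell with Gip, Gcg, Cck and Sct held 89501 CPM per kilobase of Gcg and 39507 of Cck. A cell of duodenum replicate 2 with Gcg, Cck, Nts, Sct and Iapp held 86434 CPM per kilobase of Cck, and its next highest gene was Sct with 18605.

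Gip was seen with Gcg in 3 cells, all on the jejunum plate, and in those the 2 incretin genes were joined by Cck and Sct. These cells held 20229, 41069 and 387387 CPM of Gip and 133714, 58019 and 6046 CPM of Gcg. Per kilobase of exon, Gip was at 29445, 59780 and 563883 CPM and Gcg at 89501, 38834 and 4047 CPM, so Gcg was the higher in the first cell and Gip in the other two. Their Cck levels were 51557, 32838 and 27994 CPM and their Sct levels 10651, 3643 and 13136 CPM. The low counts of the jejunum plate, at medians of 138 CPM for Gip and 75.3 CPM for Gcg, lay far below all of these. The 7 Gip cells of the duodenum held at most 33.4 CPM of Gcg.
Of the other Gip cells, 3 in duodenum replicate 2 expressed Cck, at 2692, 2737 and 13648 CPM. Sct was expressed in 8 of the 11 Gip cells, 5 of them in duodenum replicate 2 and 3 in the jejunum. Gip without any other of the 8 genes was seen in 2 cells, which held 24861 and 2072 CPM. Pyy and Nts were expressed in 0 of the 11 Gip cells, which allows a share of up to 27.3% for each. So few cells set no narrow limit on these pairs. The jejunum cell with 41069 CPM of Gip held 149 CPM of Pyy. This is under the threshold of 200 CPM but above the median of 3.16 CPM in the low cells of that plate.

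Both Sst cells expressed Iapp, at 2016 and 3079 CPM. The first held 92358 CPM of Sst beside 27982 CPM of Gip and 1384 CPM of Sct. The second held 160467 CPM of Sst and 907 CPM of Gip, which is under the threshold of 1000 CPM but above the median of 9.86 CPM in the low cells of that plate. Cck was under threshold in both, at 160 and 82.2 CPM beside a low median of 67.6 CPM on the plate.

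The Nts cells all expressed Cck and Sct. Their Cck levels were 69821, 112797 and 48668 CPM, which include the 2 highest of all 35 Cck cells. Per kilobase of exon, Nts was at 3664, 2724 and 2119 CPM in them and Cck at 53503, 86434 and 37294 CPM, so Nts was the lower of the pair in each. The first of them expressed no Gcg, and the other 2 did, at 21357 and 1239 CPM. Pyy was joined by Sct in 5 of 5 cells, by Cck in 4 and by Gcg in 3, all 3 in the jejunum. A jejunum cell with Gcg, Cck, Nts, Pyy and Sct held 1239, 48668, 2645, 876 and 16403 CPM of them, and so carried messages of the L, I, N and S cell in the older naming.

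**Figure D4:**
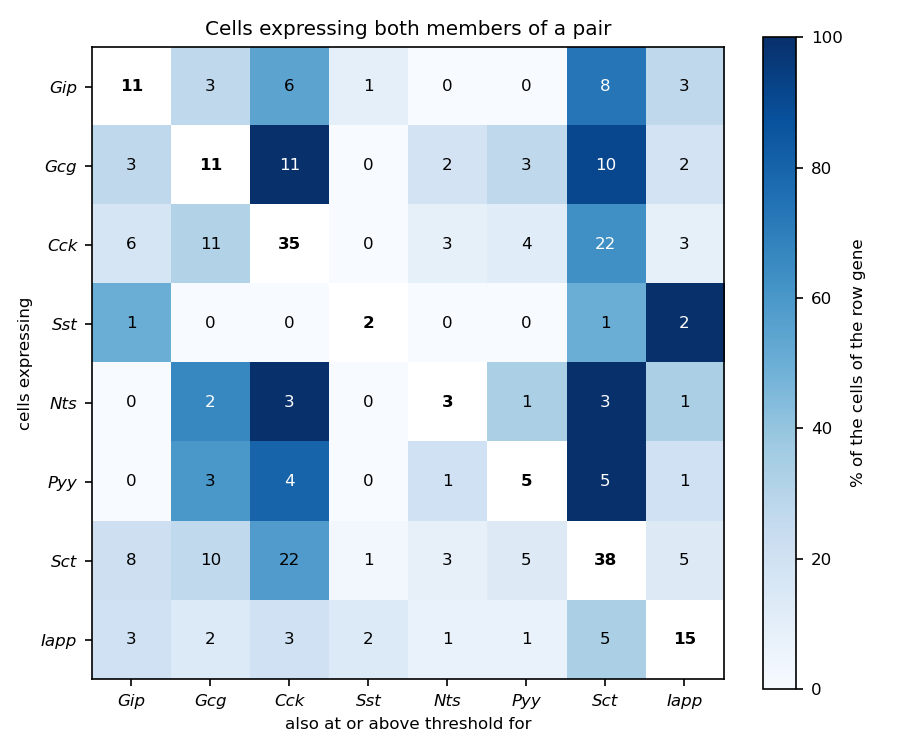
Number of cells that expressed both genes of a pair (printed in each square, with the cells of the gene itself in bold on the diagonal), coloured by the share of the row gene's cells (%). The Gcg row is at 100% for Cck with 11 cells, while the Cck row is at 31.4% for Gcg, and the squares for Gip with Pyy and Gip with Nts hold 0 cells.

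Cck alone was low. In the 12 cells with no other member Cck ran from 1072 to 4649 CPM with a median of 1720 CPM, and in the 23 cells with other members from 2692 to 112797 CPM with a median of 27994 CPM. The ranges overlap between 2692 and 4649 CPM. Cck alone was seen in 1, 5, 4 and 2 cells of duodenum replicates 1, 2 and 3 and the jejunum plate, so on all 4. Of these 12 cells Scg2 reached 100 CPM in 1, against 20 of the 22 cells with Cck and Sct, and the serotonin enzyme gene Tph1 reached 1000 CPM in 3. These cells were chosen for the absence of the other members, and the counts of Scg2 and Tph1 were not compared over plates. Sct alone was low too: the 12 cells ran from 1090 to 2276 CPM (median 1618), against 1151 to 22729 CPM (median 4751) in the 26 cells with other members.

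Some genes of serotonin cells were frequent in the 12 Sct-only cells, which by the rule lack the other members. Tph1 was at 1000 CPM or more in 8 of 12, against 4 of 51 cells with other members and 60 of 227 cells without any. The tachykinin gene Tac1 was so in 7 of 12, 12 of 51 and 77 of 227, and the amine-forming enzyme gene Ddc in 8 of 12, 20 of 51 and 83 of 227. The enterochromaffin factor gene Lmx1a was so in 3 of 12, 1 of 51 and 25 of 227, and the amine transporter gene Slc18a1 in 4 of 12, 4 of 51 and 54 of 227. Other genes of the list of 11 were rare at this level: Reg4 was found in 1 of 12, 9 of 51 and 49 of 227, Gch1, Afp, Trpa1 and Ucn3 in 1 of 12 each and Maob in 0. Their median level of Chgb was 76498 CPM, against 8192 CPM in the cells with other members. By plate these cells were 3, 7, 0 and 2. In the 12 Sct-only cells the summed level of 11 enterochromaffin markers had a median of 8977 CPM (878 to 24397), against 2088 CPM (92.5 to 148387) in the 51 cells with other members and 2834 CPM (27.9 to 146387) in the cells without any. Their summed level of 4 non-epithelial markers had a median of 815 CPM as well, against the 12.0 and 10.5 CPM given above. It came mostly from Vim, at 100 CPM or more in 9 of 12, 15 of 51 and 81 of 227 cells, while Ptprc was at 0 in all 12. Its part was not tested. Not all Sct-only cells were alike: a jejunum cell held 64883 CPM of the ghrelin gene Ghrl and 31.9 CPM of Tac1, and a cell of duodenum replicate 1 held 9.70 CPM of Tph1 and 0 of Tac1.

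Iapp, with its lower threshold, was seen alone in 8 of its 15 cells (3, 2, 3 and 0 by plate), or 53.3%. This was the largest share of a member's own cells, beside 34.3% for Cck and 31.6% for Sct with 12 cells each. These 8 cells ran from 208 to 3919 CPM, and the 7 with other members from 291 to 3079 CPM, so the ranges overlap. The highest of the 8, in duodenum replicate 3, held 5003 CPM of Tac1, 1691 CPM of Tph1 and 1576 CPM of Lmx1a. In duodenum replicate 2 the Iapp-only cells held 2193 and 1498 CPM of Neurog3, the early factor gene. In a cell of duodenum replicate 1 the early factor gene Pax4 was at 1401 CPM. Goblet markers were mixed in these cells. Fcgbp was at 1000 CPM or more in 5 of the 8 (median 2178 CPM), against 66 of 227 cells without a member (median 76.4 CPM). The trefoil factor gene Tff3 was so in 4 of 8 and 113 of 227, with up to 34238 CPM, and the mucin gene Muc2 reached at most 211 CPM. Zg16 and Guca2a were at 1000 CPM or more in 1 of 8 each, against 1 and 17 of 227. Agr2, Clca1 and Spdef were so in 0 of 8, against 14, 0 and 1 of 227. The part of goblet genes in the Iapp cells was not tested.

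Transcription factor genes differed between the hormone cells. Isl1, a homeodomain factor of hormone cells, was at 100 CPM or more in 9 of 11 Gip cells, 6 of 11 Gcg cells, 2 of 2 Sst cells and 15 of 35 Cck cells, and in 17 of 227 cells without a hormone gene. Pax6, which acts on the Gip and Gcg genes, was so in 8 of 11 Gip and 8 of 11 Gcg cells and in 18 of 227 cells without. Etv1 was so in 10 of 11 Gcg cells, 5 of 5 Pyy cells and 3 of 3 Nts cells. It was so in 5 of 11 Gip cells and 0 of 2 Sst cells, and in 0 of the 12 Cck-only and 0 of the 8 Iapp-only cells. Summed over the cells without a hormone gene, Etv1 was at 52.1, 17.8, 23.6 and 8.16 CPM on duodenum replicates 1, 2 and 3 and the jejunum plate. Hhex, known as a factor of Sst cells, was at 253 and 683 CPM in the Sst cells and at 100 CPM or more in 7 of the 51 cells with a member other than Sct, 1 of 12 Sct-only cells (with 1935 CPM, above the highest of the 51 at 984 CPM) and 0 of 227 without. Mnx1, a homeodomain factor gene, was at 100 CPM or more in 0 of 51 and 22 of 227. Lmx1a reached 100 CPM in 0 of the 19 cells with 2 or more genes besides Sct and in 69 of 227 without a member. Neurog3 reached 100 CPM in 0 of these 19 cells, in 4 of the 32 cells with 1 gene besides Sct and in 25 of 227 without. As each of these cell sets was read on the same cells, the counts are a description.

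Precursor processing and granule genes differed in how many of these cells they reached. Pcsk1, the convertase that cuts proglucagon to GLP-1, was at 100 CPM or more in 11 of 11 Gcg cells and 9 of 11 Gip cells. Pcsk2, the convertase that makes glucagon in the pancreas, was so in 0 of 11 Gcg cells and 2 of 11 Gip cells. Cpe, which trims the cut peptides, was so in 11 of 11 Gcg cells and 9 of 11 Gip cells, and Scg2 in 11 of 11 and 10 of 11. Cells without a hormone gene held Pcsk1 and Cpe too. Summed over those cells, Pcsk1 was at 204, 302, 121 and 510 CPM on duodenum replicates 1, 2 and 3 and the jejunum plate. Cpe was at 965, 441, 389 and 633 CPM in the same order. Scg2 was at 100 CPM or more in 19 of 19 cells with 2 or more genes besides Sct, 11 of 32 with 1, 1 of 12 with Sct alone and 12 of 227 with none.

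Of 14 nutrient sensor genes in the table, Ffar1 and Slc5a1 reached 100 CPM in most of the cells with several hormones, and the others did not. Ffar1, a receptor for long-chain fatty acids, was at 100 CPM or more in 14 of 19 cells with 2 or more genes besides Sct, 9 of 11 Gcg cells, 5 of 5 Pyy cells and 3 of 3 Nts cells, and in 2 of 227 cells without a member. Slc5a1, the sodium-glucose carrier, was so in 10 of 19 and 20 of 227. Abcc8, a subunit of the ATP-sensitive potassium channel, was so in both Sst cells, 5 of 11 Gip cells and 1 of 227. Ffar2, a receptor for short-chain fatty acids, was so in 0 of 11 Gip cells, 20 of 51 cells with a member other than Sct and 106 of 227 without a member, and Gprc5a in 1 of 51 and 27 of 227. Casr and Gpr142 reached 100 CPM in none of the 51 cells and none of the 227. Of the receptors for the hormones themselves, Sstr5, a somatostatin receptor, was so in 14 of 51 and 6 of 227 cells. Sstr5 was not typical of its list. In sums per plate of these 2 classes, 25% of the 12 tested genes of peptide receptors and degradation had a log2 difference above 0. It was 4.17 for Sstr5, but -3.71, -5.71 and -5.17 for the somatostatin receptor genes Sstr1, Sstr2 and Sstr3.

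Counts of all cells of a class were then summed per plate, where the class had at least 5 cells, and compared with edgeR's quasi-likelihood test, blocked by plate, at a Benjamini-Hochberg threshold of 0.05. Sums of cells with at least 1 of the 7 genes besides Sct and of cells with none were both present on 3 plates, and Sct-only cells on 1 plate, with 2 residual degrees of freedom. The 8 members, which set the classes, were left out of the counts of genes called. Between cells with at least 1 of the 7 and cells with none, 0% of 18497 genes passed. Before adjustment 1132 were under 0.05 (321 higher, 811 lower), the smallest adjusted p was 0.362, and DESeq2 called 823 (238 higher, 585 lower). The 2 tools thus gave different answers with so few sums. For cells with at least 1 of the 7 against Sct-only cells 0% of 18497 passed as well, 1843 had an unadjusted p under 0.05 (1361 higher, 482 lower), and DESeq2 called 1793. For Sct-only cells against none these were 0%, 1843 (350 higher, 1493 lower) and 1942.

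The lists below are described by their medians beside the median of all genes tested, which was -0.49 in log2 for cells with at least 1 of the 7 against none. Of 15 nutrient sensor genes 13 were tested, with a median of 3.49, 7 higher and 1 lower at an unadjusted p under 0.05. The summed Ffar1 level was 369, 163 and 464 CPM in the cells with at least 1 of the 7 and 12.3, 0.379 and 1.92 CPM in those with none, on duodenum replicates 2 and 3 and the jejunum plate. Of 30 transcription factor genes 30 were tested, with a median of 0.15, 7 higher and 3 lower. Isl1 was at 504, 208 and 362 CPM against 67.8, 9.14 and 83.5 CPM, and Pax6 at 422, 211 and 316 CPM against 38.4, 6.86 and 27.7 CPM, higher on 3 of 3 plates. Of 18 processing and granule genes 18 were tested, with a median of 0.41, 4 higher and 3 lower. Cpe was at 1473, 1721 and 1814 CPM against 441, 389 and 633 CPM, and Scg2 at 1862, 1698 and 1720 CPM against 8.56, 2.12 and 73.5 CPM. Chga and Chgb were on the other side. Chga was at 846, 783 and 3394 CPM against 4084, 1060 and 7743 CPM. Chgb was at 17200, 14680 and 21520 CPM against 38750, 17300 and 46840 CPM. Of 26 genes of peptide receptors and degradation 12 were tested, with a median of -2.32, and 1 was higher and 1 lower. Of 26 other peptide genes 13 were tested, with a median of -1.54, and 1 was higher and 1 lower. The higher was Insl5, a peptide gene of distal L cells, at 7.96, 58.5 and 125 CPM against 0.0398, 0.253 and 0.430 CPM, and the lower was Guca2b, the uroguanylin gene. The smallest adjusted p among the listed genes that are not members was 0.425, for Cpe. Enterochromaffin markers were tested for 11 of 11 genes, with a median of -1.70, 0 higher and 2 lower, and Paneth markers for 6 of 6, with a median of -2.90, 0 higher and 5 lower. Low medians were not particular to these lists. They were -2.515 for 7 goblet, -2.57 for 6 stem and progenitor, -4.17 for 2 tuft and -4.625 for 3 non-epithelial markers. The median of 6 enterocyte markers was 0.42.

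Hormone levels of whole plates were compared between jejunum (1 plate) and duodenum (3 plates). The duodenum side included the plate of 39 weeks, while the jejunum plate was of 12 weeks, and the fit had no term for age. Tissue, age and plate thus cannot be told apart in this comparison. Summed over all cells, Gip was at 0, 2645, 3600 and 15189 CPM on duodenum replicates 1, 2 and 3 and the jejunum plate. Gcg was at 0, 319, 1755 and 6048 CPM, and Sct at 184, 1076, 212 and 2174 CPM. Cck was at 49.3, 4719, 1448 and 5203 CPM and Pyy at 0, 0, 87.2 and 172 CPM. For these 5 genes the jejunum plate was the highest. For Gip 1 jejunum cell held 91.1% of the plate's counts, and without each plate's highest cell Gip was at 1715, 28.8 and 1405 CPM on duodenum replicates 2 and 3 and the jejunum plate, with duodenum replicate 2 the highest. Iapp was at 18.4, 81.0, 91.5 and 44.0 CPM. Sst was at 2781 CPM and Nts at 118 CPM on duodenum replicate 2, with Nts at 14.5 CPM in the jejunum and both at 0 on the other plates. The test called 0% of 19329 genes, with 819 at an unadjusted p under 0.05, and DESeq2 called 731. Sct had a log2 difference of 2.16 ± 0.92 (SE, edgeR unadjusted p = 0.0489, adjusted p = 0.934), Gcg of 3.03 ± 2.43 (0.934), Gip of 2.81 ± 2.49 (0.959) and Cck of 1.32 ± 1.56 (1.00). None of these passed the adjusted threshold, and an exact permutation of 1 plate against 3 cannot go below p = 0.25. In sums over a plate, fewer cells of a type and less RNA per cell cannot be told apart.

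Between the duodenum plate of 39 weeks and the 2 plates of 12 weeks, 0% of 18480 genes passed, with 1412 at an unadjusted p under 0.05, and DESeq2 called 920. Cck was at 49.3 CPM at 39 weeks and at 4719 and 1448 CPM at 12 weeks, a log2 difference of -6.08 ± 1.05 (SE, edgeR adjusted p = 0.479). Iapp was at 18.4 against 81.0 and 91.5 CPM (-2.39 ± 0.55, 0.588). Gip and Gcg were at 0 counts at 39 weeks, and against the limit of 3 counts the pooled 12-week plates were at least 24842-fold and 8217-fold higher (edgeR adjusted p = 0.196 and 0.390 from the fit). With duodenum replicate 2 alone as the 12-week plate the bounds were 21066-fold and 2540-fold, and with replicate 3 alone 28674-fold and 13980-fold. These bounds lean on single cells: 1 cell held 99.2% of the Gip counts of replicate 3, and 1 cell held 93.1% of the Gcg counts of replicate 2. Without each plate's highest cell, Gip was at 1715 and 28.8 CPM and Gcg at 22.3 and 487 CPM on replicates 2 and 3. The plate of 39 weeks also had the lowest median depth, 321534 counts per cell, and 1 plate stands on that side, so age and plate cannot be told apart. An exact permutation of 1 against 2 cannot go below p = 0.333.

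The genes whose levels followed each hormone gene most closely were ranked by Pearson's r of log2(CPM + 10) across 290 cells, with each plate centred, over 12968 genes. These points share plates and depth and are given as a description. For Gcg they were Upk1b (0.79), Cck (0.61), Insl5 (0.60), Scg2 (0.57) and Ffar1 (0.57). For Cck they were Scg2 (0.65), Ffar1 (0.64), Gcg (0.61), Rbp4 (0.60) and Etv1 (0.49), and for Sct Scg2 (0.52), Ffar1 (0.50), Pax6 (0.48), Slc6a19 (0.47) and Rbp4 (0.46). The lists of these 3 genes share Scg2 and Ffar1, but they are not independent. All 11 Gcg cells expressed Cck, 10 of them expressed Sct, and 22 of the 35 Cck cells expressed Sct. For Gip they were Gm14328 (0.72), Rgs4 (0.71), Rbp2 (0.67), Cnr1 (0.65) and Abcc8 (0.62), and for Iapp Sst (0.41), Rgs4 (0.34), Mep1a (0.33), Ceacam18 (0.32) and Clmn (0.32). For Pyy, with 5 cells, they were Fap (0.53), Mag (0.51), Cyp2u1 (0.49), Mamld1 (0.42) and Pex10 (0.39). Several of the named genes were rare: at least 5 counts were found in 5 cells for Mamld1, 6 for Insl5, 7 for Cnr1 and 8 for Upk1b.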

How the data were processed

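The authors deposited 1 table of counts per gene and well for the cells they kept, and the values were used as counts. Per the submitters' processing notes the build was mm10 and the tools were bcl2fastq 2.17.1.14, cutadapt 1.10, Bowtie2 2.2.8, STAR 2.5.3a, UMI-tools 0.4.4 and HTSeq 0.6.1, with no role or order given. Whether copies were collapsed by molecular index is not given in the sources used here. Columns were matched to plates by the number in the column name and the pool number of the sample title, which left 0 columns out. Per the labels' protocols the library kit was BD Precise WTA, on polyadenylated RNA. Symbols were found for 29120 of 29161 genes. No cell was removed and no doublet caller was run.

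CPM was taken over all counts of a cell. Sums of at least 5 cells per plate and class were tested with edgeR 4.0.16 (R 4.3.3, limma 3.58.1, TMM, filterByExpr, plate as block, Benjamini-Hochberg, 0.05), with DESeq2 1.42.0 as an alternative. The scripts were tested on simulated data with the same fixed spread for all genes, which was not estimated from these cells. That test does not show how many true differences the fits would miss here. The members and gene lists were chosen with earlier results of these data known. All members are named. Other genes are named where a listed gene passes the test, as listed levels, or as the 5 genes most like a member (at least 5 counts in at least 5 cells). Up to 8 other genes per direction past the threshold were to be named, and there were none. Alternatives covered thresholds, scaling, filters, tool, block, depth (thinning to 100000 counts) and left-out plates. Of the listed genes Grp, Ppy, Penk, Calcb, Npw, Galp, Kiss1, Gcgr, Cckbr, Calcr, Trpm5, Fabp1 and Rgs13 had no row of their own in the table used here.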

Additional observations from a re-analysis of the deposited data

How the results depend on the processing

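Shares of cells moved most with the CPM threshold. At 0.5 times the threshold 5.86% of cells reached it for Sst, 24.8% for Sct, 26.9% for at least 1 of the 7 genes besides Sct and 11.4% for Sct alone. All Sst counts lay on duodenum replicate 2, whose cells below the threshold held a median of 267 CPM and up to 751 CPM. The Sst cells added here and at 200 CPM were those low cells, and they also entered the shares of the 7 genes. At 2 times the threshold Sct was at 6.90% and Sct alone at 0.345%. At 200 CPM for all members Cck was at 23.1%, Sst at 24.1%, Sct at 41.7%, at least 1 of 7 at 44.1%, 2 or more of 7 at 14.8% and Sct alone at 17.9%, and at 1000 CPM for all Iapp was at 1.38%. With a threshold of 10 times the plate's low median and at least 200 CPM, chosen after the data had been seen, Cck was at 16.6%, Sct at 27.6% and Sct alone at 15.9%. With 1 plate left out the shares ran from 0 to 0.917% for Sst, 9.18 to 16.1% for Sct (lowest without duodenum replicate 2 for both), 1.76 to 5.05% for Gcg and for Gcg with Cck, 0.441 to 2.42% for Pyy and 0 to 1.45% for Gip with Gcg (lowest without jejunum replicate 1). Thinning and library sizes without the members moved no share by more than its interval. As thinning keeps the expected CPM, it could move only cells close to a threshold.

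Without the plate as a replicate block, edgeR called 3, 156 and 98 genes for cells with at least 1 of 7 against none, against Sct-only cells, and for Sct-only cells against none, where the blocked fit called 0. The block pairs the classes within a plate. DESeq2 called 823 (238 higher), 1793 (1353 higher) and 1942 (278 higher), and at 0.5 times the threshold edgeR called 2 in the first and 1 in the last. For jejunum against duodenum DESeq2 called 731, the fit without a filter on low counts 9, and fits without 1 duodenum plate from 0 to 10. For 39 against 12 weeks DESeq2 called 920 and the fit without that filter 226. The cause of these differences was not tested. The difference of Nts between jejunum and duodenum was reversed to 12.01 in log2 without duodenum replicate 2 (edgeR adjusted p = 0.825; -1.43 with all plates, and from -2.01 to 12.01 with 1 duodenum plate left out). The median log2 difference of all genes in the first class test ran from -0.77 to -0.18 over the settings. Fits of Sct-only cells without duodenum replicate 2, at 2 times the threshold or with only the classes compared, and fits of age without a plate, gave no value.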

Other observations

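Other peptide genes were found in the hormone cells as well. Ghrl, the ghrelin gene, was at 1000 CPM or more in 6 of 51 cells with a member other than Sct, 1 of 12 Sct-only cells and 9 of 227 cells with none. The highest of the 6 held 31189 CPM of Ghrl beside 73595 CPM of Gcg and 9672 CPM of Cck, in duodenum replicate 3. Others held 6748 CPM in the jejunum cell with Gcg, Cck, Nts, Pyy and Sct, and 6438 and 4573 CPM in cells of duodenum replicate 2 with Cck and Sct. Ghrl reached 1000 CPM in 0 of 11 Gip cells. Tac1 was at 1000 CPM or more in 12 of 51, 7 of 12 and 77 of 227 cells of these classes, among them 3 of 5 Pyy cells and a jejunum cell with 8635 CPM beside Gcg, Cck, Pyy, Sct and Iapp. Insl5 did not reach 1000 CPM in any cell. Its highest levels in hormone cells were 566, 540 and 491 CPM, each in a cell that expressed Gcg. Guca2b was at 1000 CPM or more in 17 of 227 cells without a member and in 0 of the other 63.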
